A study of Homo sapiens with 48 samples.

Results

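The genes of the mitochondrial ribosome were taken as the rows of the deposited gene table whose symbol is MRPL or MRPS followed by a number and at most a single letter, with at least 1000 counts in total over 48 libraries. Of 75 rows whose symbol matched, 74 met that minimum and MRPL30 did not, so that 74 of 19509 gene rows with counts are described, 29 with an MRPS symbol and 45 with an MRPL symbol. The cells were IMR90 ER:RAS, human lung fibroblasts of an established line with an inducible oestrogen receptor fusion to RAS carrying G12V, and all libraries came from this line, controls included. Cells received 4-hydroxytamoxifen (4OHT), which switches the fusion on and leads to senescence, or its solvent DMSO, for 6 days. They were then transfected with non-targeting siRNAs (siNT), siRNAs against the splicing factor SF3B1 (siSF3B1) or siRNAs against the splicing factor RBM39 (siRBM39), and kept for 2 days in medium with 0.5% serum. The 6 groups (DMSO or 4OHT with siNT, siSF3B1 or siRBM39) held 8 libraries each, 4 replicates for each of 2 siRNAs per target. Nothing in the labels says that replicates came from separate cultures, so p-values measure the spread between these libraries. In bulk RNA, fewer cells of a type and less RNA per cell cannot be told apart.

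Mitochondria keep a ribosome of their own, which makes the few proteins encoded by mitochondrial DNA, all of them parts of the respiratory chain and ATP synthase. Its RNAs come from the mitochondrial genome, but its proteins are encoded in the nucleus, made in the cytosol and imported, so the particle depends on many unlinked nuclear genes being expressed together. SF3B1 belongs to the U2 snRNP, which recognises the branch point ahead of the 3′ splice site, and RBM39 is an SR-like protein that works with U2AF at the same end of the intron. The symbols are not a perfect guide to place, since the products of MRPS18A and MRPS30 sit in the large subunit and MRPS36 is a component of the 2-oxoglutarate dehydrogenase complex. Subunit below means the symbol.

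The library totals ran from 31467221 to 52734636 counts (median 39656598). SF3B1 ranged from 311 to 396 CPM (median 362) in DMSO siNT and from 30.4 to 35.2 CPM (median 33) in DMSO siSF3B1, and from 315 to 339.8 CPM (median 327) and from 25.3 to 30.7 CPM (median 26.5) in the same arms of 4OHT, in counts scaled with TMM to the size of each library (CPM). RBM39 ranged from 158 to 185 CPM (median 172) in DMSO siNT and from 24.2 to 31 CPM (median 27.4) in DMSO siRBM39, and from 115 to 127 CPM (median 120.4) and from 13.7 to 18.4 CPM (median 16.6) in 4OHT, so each target was lower in its own knockdown without overlap. SF3B1 itself was higher after siRBM39 (0.46 on the log2 scale in DMSO) and RBM39 after siSF3B1 (0.83). All 6 fibroblast markers examined were expressed in every library, VIM from 4808.7 to 6637.3 CPM, although 5 of the 6 fell with 4OHT. Of the 10 epithelial, endothelial and immune markers 9 were found, and only CD68 (33.1 to 113.5 CPM) was high enough to test, KRT5 reaching 30.2 CPM, VWF 7.51 CPM and the rest at most 2.79 CPM. All 7 senescence markers were called in 4OHT against DMSO with siNT, 6 higher and LMNB1, a lamin lost in senescence, lower. The library of siRBM39-08 replicate 4 in 4OHT stood apart from its group: it held the highest value of the group for 55 of the 74 genes and the lowest for 12, and 2.46% of its counts were mitochondrially encoded against 5.29% to 7.67% in the other 7. The main counts of calls and the named differences for 4OHT siRBM39 are therefore given with it and without it, and all other values include it.

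Under control conditions the genes spanned a wide range of levels. On the length-corrected scale of the deposited table (cRPKM, an RPKM corrected for mappability), the median gene was at 19.9 in DMSO siNT. The highest were MRPS24 at 57.9 ± 3.18 (SD, n = 8), MRPL37 at 49.6 ± 2.11, MRPL3 at 46.4 ± 2.64 and MRPL20 at 43.4 ± 2.03, in the same unit. MRPL3 lies close to the peptidyl transferase centre. The lowest were MRPL22 at 3.80 ± 0.472, MRPS25 at 4.82 ± 0.742, MRPL50 at 4.92 ± 0.27 and MRPS17 at 5.63 ± 0.427 cRPKM. In that order MRPS25 and MRPL50 differed by less than 1 SD, as did no other pair of neighbours among the lowest 4. MRPS17, a small-subunit RNA-binding protein, was the only gene of the 74 under the 10000 counts needed for testing, which left 73 of 9991 tested genes. Counts per tested gene, summed over libraries, ran from 17796 (MRPL55) to 141173 (MRPL37). Of the 74 genes, 34 have named pseudogenes. Of the 72 found by identifier in the GRCh37 annotation, on 21 chromosomes, 30 have an antisense gene over an exon. The sources used here do not say whether counting used strand or how reads shared with a pseudogene were placed.

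The summed level of all 74 genes gives an overview of how their joint share of the library moved. In DMSO siNT it was 1965.5 ± 30.6 CPM (SD, n = 8), with libraries from 1906.3 to 2000 CPM. In 4OHT siNT it was 2413.2 ± 30.1 CPM, from 2373.4 to 2465.2, and no library overlapped with DMSO siNT. After siSF3B1 it was 2215.5 ± 70.4 CPM in DMSO (from 2123.8 to 2295.8) and 2618.1 ± 49.9 CPM in 4OHT (from 2548 to 2715.8), above siNT in every library of each treatment. The MRPL sum did not overlap with siNT either, but the MRPS sum did in both treatments (4OHT, from 955.6 to 996.3 against 923.9 to 974.4 CPM). The median log2 CPM of the genes moved otherwise. In 4OHT it was 4.69 to 4.83 after siSF3B1, below all siNT libraries (4.85 to 4.96). In DMSO it overlapped with siNT (4.52 to 4.71 against 4.47 to 4.61). After siRBM39 the sum of all 74 was 2113.4 ± 157 CPM in DMSO (from 1979.1 to 2371.4), which overlapped with siNT. In 4OHT siRBM39 it was 2605.9 ± 456 CPM with the library that stood apart, which alone reached 3722.2, and 2446.5 ± 75.1 CPM (n = 7, from 2333.8 to 2571.7) without it, overlapping with 4OHT siNT. The sum is led by the abundant genes, and no test was made of it or of the median.

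**Figure D1:**
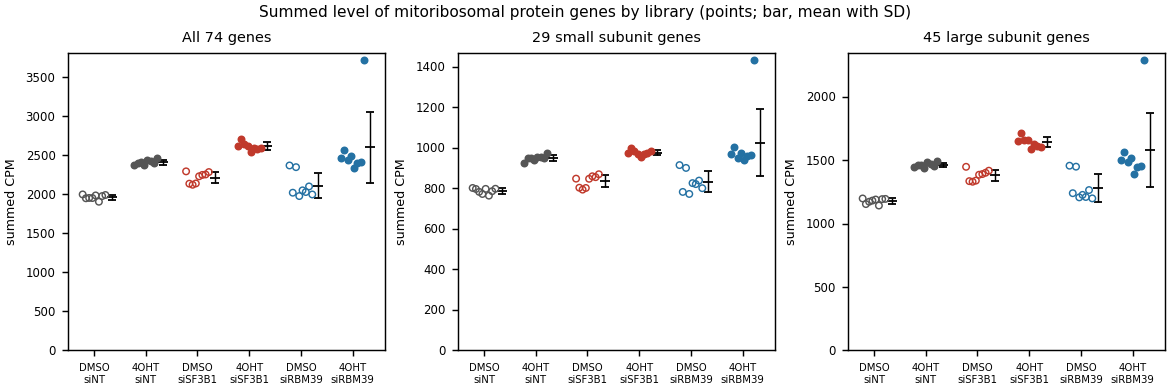
The summed CPM of all 74 genes, the 29 MRPS genes and the 45 MRPL genes in each of the 48 libraries, by treatment and siRNA target, with the mean and SD of each group. The 4OHT siNT libraries (2373.4 to 2465.2 CPM) all sit above the DMSO siNT libraries (1906.3 to 2000 CPM), and a single 4OHT siRBM39 library lies at 3722.2 CPM.

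After loss of SF3B1, more of these genes were called higher than lower in each treatment. In DMSO, 48 of the 73 tested genes were called at an adjusted p under 0.05 by edgeR's quasi-likelihood test with Benjamini-Hochberg adjustment over all genes, 34 higher and 14 lower, with a median log2 fold change of 0.15. That is 46.6% higher and 19.2% lower. For comparison, 72.7% of all tested genes were called, 36.5% higher and 36.2% lower, with a median of 0.02. In 4OHT, 45 were called, 29 higher (39.7%) and 16 lower (21.9%), with a median of 0.11. For comparison, 77% of all tested genes were called, 39.4% higher and 37.6% lower, with a median of 0.03. In this fit, with a common spread over all 48 libraries, the share called higher was near the background and the share called lower below it. Fitted on the compared groups alone, 37 were higher and 24 lower in 4OHT, beside 4329 and 4358 of all 9991 genes. Without the libraries numbered replicate 4 they were 35 and 14, beside 4023 and 3744. By subunit in the fit of all libraries, 22 of 45 MRPL genes rose and 5 fell in DMSO, whereas 12 of 28 MRPS genes rose and 9 fell. In 4OHT, 20 MRPL genes rose and 8 fell, against 9 and 8 MRPS genes. The knockdowns in DMSO and 4OHT share no library, and 39 genes were called in both, which is 81.2% of the DMSO calls and 86.7% of the 4OHT calls, beside 85.1% and 80.4% for all tested genes. Of these 28 were higher in both and 11 lower in both. A 2-fold change was passed by 0 of 73 genes in DMSO, beside 7.59% of all genes, and by MRPL54 alone in 4OHT, beside 11.6%.

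MRPL54, a small protein of the large subunit, rose most. It ranged from 6.96 to 9.20 CPM (median 8.57) in DMSO siNT and from 14.3 to 20.7 CPM (median 15.9) after siSF3B1 (log2 fold change 0.96, SE 0.23, adjusted p = 0.00019). In 4OHT it ranged from 8.00 to 8.81 CPM (median 8.15) and from 14.2 to 19.9 CPM (median 16.8) (log2 fold change 1.02, SE 0.23, adjusted p = 7.56e-05). The libraries did not overlap in either treatment. MRPL10, which forms the base of the stalk that recruits translation factors, ranged from 35.3 to 43.2 CPM (median 39.4) in DMSO siNT and from 58.3 to 66.4 CPM (median 62.7) after siSF3B1 (log2 fold change 0.69, SE 0.043, adjusted p = 4.12e-19). In 4OHT it ranged from 38.8 to 41.9 CPM (median 40.6) and from 65.3 to 74.3 CPM (median 69.8) (log2 fold change 0.77, SE 0.043, adjusted p = 3.85e-21). All siSF3B1 libraries lay above all siNT libraries in each treatment. MRPS35, of the small subunit, ranged from 43.2 to 46.8 CPM (median 45.7) in DMSO siNT and from 68.9 to 77.5 CPM (median 73.5) after siSF3B1 (log2 fold change 0.69, SE 0.03, adjusted p = 1.51e-24), again without overlap. MRPL22, which lines the exit tunnel, MRPL36, a small zinc-binding protein, and MRPL18 also led in DMSO, with log2 fold changes of 0.75, 0.67 and 0.66. In 4OHT the next after MRPL54 was MRPL23, another protein at the exit tunnel, which ranged from 8.49 to 10.3 CPM (median 9.64) in siNT and from 16.6 to 19.6 CPM (median 18.8) after siSF3B1 (log2 fold change 0.96, SE 0.15, adjusted p = 2.68e-07). MRPS33 rose by 0.80, MRPS18B by 0.56 and MRPL1, of the mobile L1 stalk, by 0.54 on the log2 scale in 4OHT. For all of these the 8 siSF3B1 libraries lay above the 8 siNT libraries of the treatment named, which was a condition for being named. The libraries did not overlap for 49.3% of the 73 genes in DMSO and 58.9% in 4OHT, beside 54.9% and 68.9% of all genes.

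The genes that fell were fewer. MRPS25, a small-subunit protein, ranged from 15.4 to 26.4 CPM (median 22.1) in DMSO siNT and from 11.7 to 14.8 CPM (median 13) after siSF3B1 (log2 fold change -0.72, SE 0.081, adjusted p = 6.1e-11). In 4OHT it ranged from 36.3 to 41 CPM (median 38.8) and from 19.6 to 22.5 CPM (median 21.2) (log2 fold change -0.87, SE 0.079, adjusted p = 1.08e-13). Its libraries did not overlap in either treatment. MRPS6, which binds the small-subunit rRNA, ranged from 30.1 to 34.8 CPM (median 33.2) in DMSO siNT and from 15.8 to 21.6 CPM (median 18.4) after siSF3B1 (log2 fold change -0.82, SE 0.082, adjusted p = 2.68e-12). In 4OHT it ranged from 28.2 to 34.1 CPM (median 30.8) and from 19.2 to 26.9 CPM (median 23.5) (log2 fold change -0.40, SE 0.081, adjusted p = 2.71e-05). The siSF3B1 libraries lay below all siNT libraries in both treatments. MRPL17, of the large subunit, ranged from 72.2 to 78.7 CPM (median 76.1) in 4OHT siNT and from 43.1 to 47.7 CPM (median 45.3) after siSF3B1 (log2 fold change -0.74, SE 0.074, adjusted p = 1.95e-12). MRPS5, which lies near the mRNA entry channel, ranged from 42.7 to 46.3 CPM (median 45) and from 23.9 to 31 CPM (median 26.5) in the same groups (log2 fold change -0.73, SE 0.074, adjusted p = 3.25e-12). In DMSO MRPL17 had a log2 fold change of -0.49 and MRPS5 one of -0.26. MRPL33 (-0.82), MRPL21 (-0.59) and MRPS34 (-0.50) completed the list in DMSO, and MRPL39 (-0.74), MRPL9 (-0.60) and MRPL21 (-0.60) in 4OHT. The siSF3B1 libraries of each lay below all siNT libraries, again a condition for being named. This was so for 9 of 73 genes in DMSO and 12 in 4OHT, beside 2798 and 3354 of all 9991 genes.

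**Figure D2:**
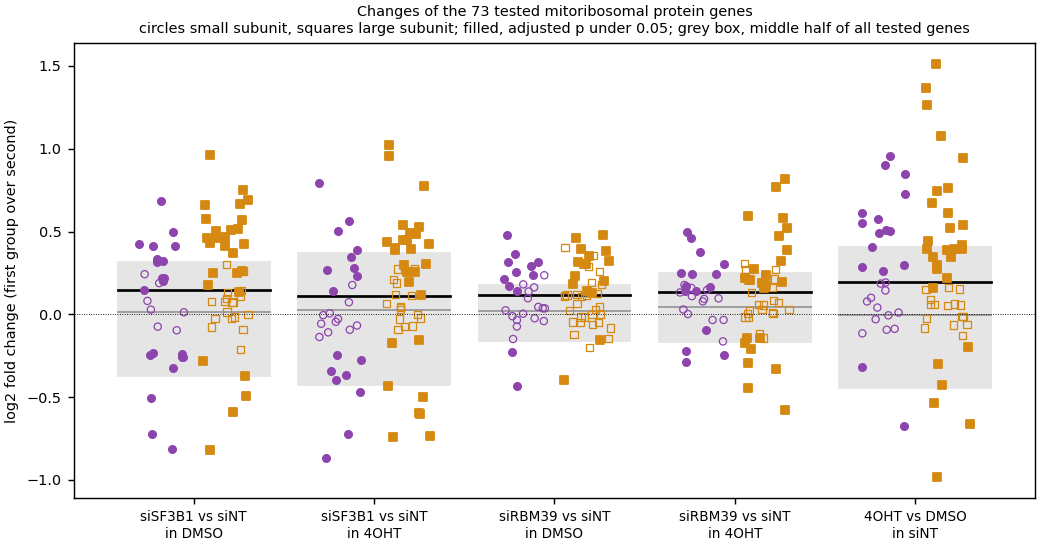
Log2 fold change of each of the 73 tested genes in the 4 knockdown comparisons and in 4OHT against DMSO (circles MRPS, squares MRPL, filled where called), with the median of the genes (black line) and the median and interquartile range of all tested genes (grey). The gene medians lie at 0.15 and 0.11 after siSF3B1, 0.12 and 0.13 after siRBM39 and 0.19 after 4OHT, above the medians of all tested genes, and the 0.13 is 0.05 without 1 library of 4OHT siRBM39, against 0.04 for all genes.

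After loss of RBM39 more of the genes were called higher than lower in DMSO, whereas in 4OHT the split was nearly even without 1 library. In DMSO 28 of 73 were called, 24 higher (32.9%) and 4 lower (5.48%), with a median of 0.12, while 46.1% of all tested genes were called, 23.9% higher and 22.2% lower, with a median of 0.02. Leaving out the libraries numbered replicate 3 gave 13 higher and 3 lower in DMSO, beside 1661 and 1670 of all 9991 genes. In 4OHT 40 were called, 28 higher (38.4%) and 12 lower (16.4%), with a median of 0.13, while 56.4% of all tested genes were called, 32.2% higher and 24.3% lower, with a median of 0.05. Without the library that stood apart, 33 were called in 4OHT, 17 higher and 16 lower, with a median of 0.05, while 60.2% of all tested genes were called, 33.1% higher and 27.1% lower, with a median of 0.04. With siRBM39-06 alone, which leaves that library out too, 22 were higher and 14 lower in 4OHT, beside 3351 and 2851 of all 9991 genes. The MRPL genes split 14 higher and 2 lower in DMSO and the MRPS genes 10 and 2. In 4OHT, 17 MRPL genes rose and 8 fell, and 11 MRPS genes rose and 4 fell. Without that library the splits were 9 and 11 MRPL genes and 8 and 5 MRPS genes. Called in both treatments were 20 genes, 71.4% of the DMSO calls and 50% of the 4OHT calls, beside 76% and 62.1% for all tested genes, 16 higher and 4 lower in both. Without the library 15 were, 53.6% and 45.5% of the calls beside 76.5% and 58.6% for all, 11 higher and 4 lower. A 2-fold change was passed by 0 of 73 genes in each treatment, beside 1.29% and 2.29% of all genes.

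The siRBM39 libraries did not overlap with siNT for 5 of 73 genes in DMSO and 8 in 4OHT, beside 20.5% and 25.1% of all genes. In DMSO, MRPS21 ranged from 17.9 to 19.9 CPM (median 18.9) in siNT and from 22.4 to 32.5 CPM (median 24.9) after siRBM39 (log2 fold change 0.48, SE 0.085, adjusted p = 7.56e-06). MRPL20, of the large subunit, rose by 0.32 and MRPS35 by 0.32 on the log2 scale. With siRBM39-08 alone MRPL20 had 0.20 (adjusted p = 0.155) and was not called. MRPS16, a small-subunit protein, ranged from 61 to 68.1 CPM (median 63.4) and from 38.3 to 56.7 CPM (median 47.3) (log2 fold change -0.43, SE 0.089, adjusted p = 7.8e-05), all siRBM39 libraries being lower. MRPS10 was the other gene lower without overlap, at -0.23. MRPL2 (-0.40) and MRPL46 (-0.16), named after their values were seen, made up the 4 lower genes, with overlapping libraries. In 4OHT, MRPL1 ranged from 9.97 to 13.6 CPM (median 11.1) in siNT and from 14.7 to 19 CPM (median 17.2) after siRBM39 (log2 fold change 0.59, SE 0.062, adjusted p = 2.62e-11). MRPL39 ranged from 14.8 to 18 CPM (median 15.9) and from 6.91 to 12.1 CPM (median 11.3) (log2 fold change -0.58, SE 0.11, adjusted p = 2.22e-05). MRPL1 was thus higher and MRPL39 lower in all 8 siRBM39 libraries. MRPS6 (0.46), MRPS27 (0.24), a pentatricopeptide repeat protein, MRPS28 (0.16) and MRPS35 (0.14) were higher without overlap in 4OHT. MRPL46 (-0.44) and MRPL16 (-0.33), the latter near the peptidyl transferase centre, were lower without overlap. Without the library that stood apart all 8 stayed past the threshold, with log2 fold changes of 0.62 (adjusted p = 3.77e-12) for MRPL1, 0.44 (adjusted p = 8.63e-06) for MRPS6, 0.18 (adjusted p = 1.26e-05) for MRPS27, 0.15 (adjusted p = 0.0138) for MRPS28 and 0.13 (adjusted p = 0.000172) for MRPS35. The call of MRPS28 was lost without the libraries numbered replicate 2 and with either siNT alone (0.15 to 0.16 on the log2 scale). For the 3 lower genes without the library they were -0.51 (adjusted p = 5.21e-05) for MRPL39, -0.50 (adjusted p = 4.86e-13) for MRPL46 and -0.35 (adjusted p = 2.83e-06) for MRPL16.

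Of the comparisons made, 4OHT against DMSO held the largest fold change, that of MRPL36. In 4OHT against DMSO with siNT, 45 of 73 genes were called, 37 higher (50.7%) and 8 lower (11%), with a median of 0.19. For comparison, 78.1% of all tested genes were called, 39% higher and 39.1% lower, with a median of -0.00. Of the MRPL genes 23 rose and 6 fell, and of the MRPS genes 14 rose and 2 fell. A 2-fold change was passed by 4 of 73 genes, all higher, beside 18.5% of all genes in either direction. MRPL36 ranged from 16.8 to 20.4 CPM (median 17.9) in DMSO siNT and from 48.5 to 55.4 CPM (median 51.5) in 4OHT siNT (log2 fold change 1.51, SE 0.077, adjusted p = 5.67e-23). MRPL17 ranged from 27.5 to 31.5 CPM (median 29.3) and from 72.2 to 78.7 CPM (median 76.1) (log2 fold change 1.36, SE 0.075, adjusted p = 1.13e-21), and MRPL15, of the large subunit, from 27.4 to 31.6 CPM (median 29.9) and from 69.1 to 75.3 CPM (median 71.2) (log2 fold change 1.27, SE 0.058, adjusted p = 9.52e-25). No 4OHT library of these 3 reached down to a DMSO library, which was so for 33 of 73 genes, beside 3580 of all 9991. MRPL14 ranged from 13.2 to 17.9 CPM (median 14.6) in DMSO siNT and from 27.4 to 34.2 CPM (median 31.6) in 4OHT siNT (log2 fold change 1.08, SE 0.13, adjusted p = 1.89e-10). MRPS12, a protein of the decoding centre, rose by 0.96 and MRPL52 by 0.95 on the log2 scale.

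In the other direction, MRPL23 ranged from 17.2 to 20.4 CPM (median 18.5) in DMSO siNT and from 8.49 to 10.3 CPM (median 9.64) in 4OHT siNT (log2 fold change -0.98, SE 0.15, adjusted p = 1.29e-07). MRPL11, at the stalk base near the factor-binding site, ranged from 21.6 to 24.4 CPM (median 22.3) and from 13.2 to 15.5 CPM (median 14.2) (log2 fold change -0.66, SE 0.13, adjusted p = 7e-06), and MRPS14 from 21 to 24.7 CPM (median 22.7) and from 13.1 to 15.6 CPM (median 14.1) (log2 fold change -0.67, SE 0.048, adjusted p = 1.47e-17). MRPL1 (-0.53), MRPL48 (-0.43) and MRPS9 (-0.32) fell too. The 4OHT libraries lay below every DMSO library for 8 of 73 genes, the same 8 that were called lower, beside 35.5% of all genes. MRPL36 and MRPL17 thus moved opposite to MRPL23 and MRPL11 although their products share the large subunit.

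**Figure D3:**
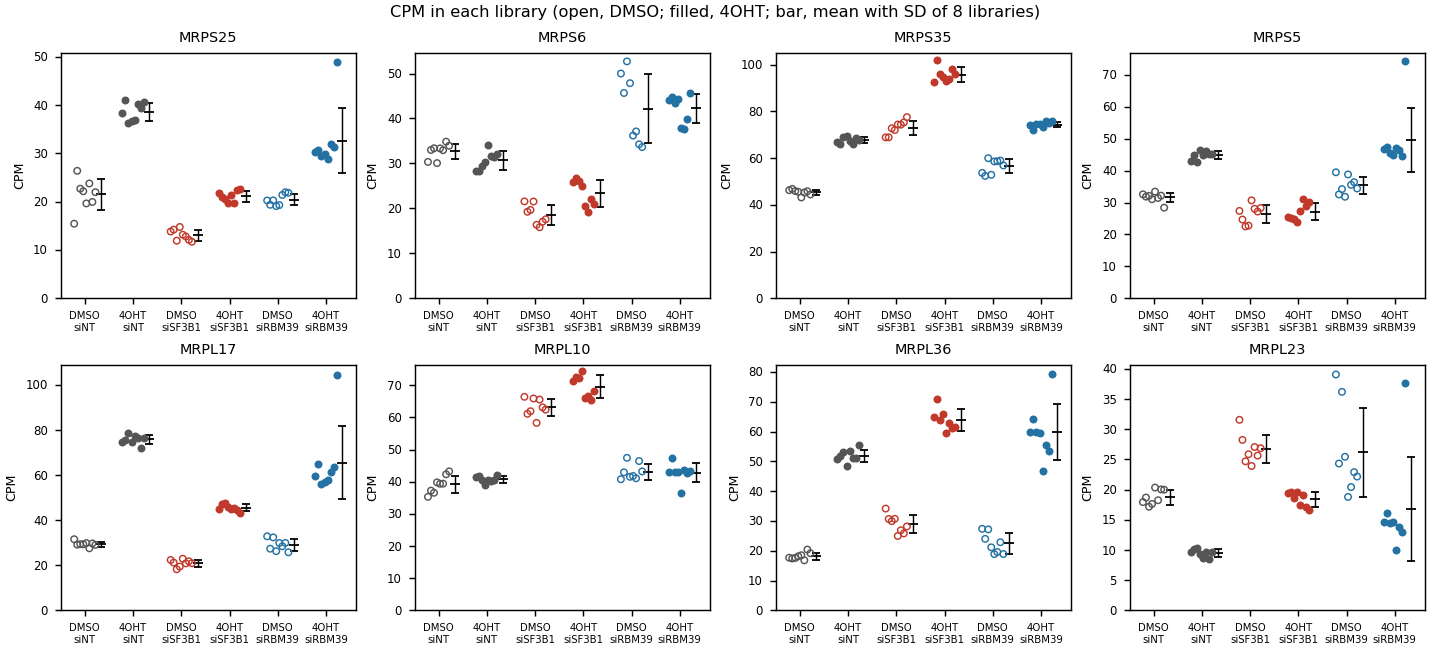
CPM of MRPS25, MRPS6, MRPS35, MRPS5, MRPL17, MRPL10, MRPL36 and MRPL23 in each library by treatment and siRNA target, with means and SDs. MRPL36 and MRPL17 are higher and MRPL23 is lower in 4OHT siNT than in every DMSO siNT library, while MRPS25 is lower after siSF3B1 in both treatments.

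Since 4OHT moved these genes in opposite directions, the sequences ahead of their starts are shown. Of the 74 genes, 65 were found in RefSeq's GRCh38.p14 promoter windows of 300 bases, 250 before and 50 after the start. On either strand, the ETS-family core CCGGAAG was in 41.5% of these windows against 10.3% of all 35116 windows. The NRF1 core GCGCANGCG was in 16.9% against 7.52%, the YY1 core AAGATGG in 35.4% against 5.84% and the Sp core GGGCGG in 63.1% against 44.95%. The ETS core was in 9 of 31 windows of genes higher in 4OHT, 1 of 7 of genes lower and 17 of 27 of genes not called. NRF1 matches stood in 7, 2 and 2 windows of the same sets, YY1 in 13, 2 and 8, and Sp in 17, 4 and 20. These shares describe letters in a window and were not tested. The 150 bases before the start of 7 of the leading genes follow, 5′ to 3′ on the strand of the gene, with matches in capitals. MRPL36, MRPL17, MRPL14, MRPS12 and MRPL52 were higher in 4OHT, and MRPS14 and MRPL11 were lower.
MRPL36 (chr5:1799838-1799987, minus strand): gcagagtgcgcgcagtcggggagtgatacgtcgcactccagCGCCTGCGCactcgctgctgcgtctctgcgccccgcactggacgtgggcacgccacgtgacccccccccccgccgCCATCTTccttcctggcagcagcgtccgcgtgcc
MRPL17 (chr11:6683341-6683490, minus strand): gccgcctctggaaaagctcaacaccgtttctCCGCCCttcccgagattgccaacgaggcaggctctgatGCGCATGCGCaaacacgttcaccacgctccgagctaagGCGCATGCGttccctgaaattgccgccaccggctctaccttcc
MRPL14 (chr6:44127309-44127458, minus strand): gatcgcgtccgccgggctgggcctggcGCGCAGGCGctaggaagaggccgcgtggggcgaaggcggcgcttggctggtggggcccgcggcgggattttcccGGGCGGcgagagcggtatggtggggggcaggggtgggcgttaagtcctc
MRPS12 (chr19:38930794-38930943, plus strand): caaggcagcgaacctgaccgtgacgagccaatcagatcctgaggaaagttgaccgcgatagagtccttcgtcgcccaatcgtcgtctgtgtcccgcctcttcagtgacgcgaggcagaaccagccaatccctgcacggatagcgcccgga
MRPL52 (chr14:22829737-22829886, plus strand): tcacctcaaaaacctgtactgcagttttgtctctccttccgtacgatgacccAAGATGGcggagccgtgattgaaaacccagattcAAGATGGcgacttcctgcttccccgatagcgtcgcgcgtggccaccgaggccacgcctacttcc
MRPS14 (chr1:175023426-175023575, minus strand): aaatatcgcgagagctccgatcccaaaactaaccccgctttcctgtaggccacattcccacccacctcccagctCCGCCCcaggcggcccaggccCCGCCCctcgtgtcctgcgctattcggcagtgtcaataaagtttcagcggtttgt
MRPL11 (chr11:66438849-66438998, minus strand): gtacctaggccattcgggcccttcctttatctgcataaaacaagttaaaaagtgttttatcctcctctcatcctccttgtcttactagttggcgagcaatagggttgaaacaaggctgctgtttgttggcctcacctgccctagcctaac
MRPL36 has an NRF1 and a YY1 match, MRPL17 3 NRF1 matches, of which a pair overlap on opposite strands, and a Sp match, MRPL14 an NRF1 and a Sp match, MRPL52 2 YY1 matches and MRPS14 2 Sp matches, while MRPS12 and MRPL11 have none in these 150 bases. Also lower in 4OHT but not printed, MRPL1 has a Sp match there, MRPL48 an ETS match and MRPS9 an NRF1 and a Sp match.

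Whether a knockdown acted differently in the senescent cells was tested as an interaction. For siSF3B1, 18 of 73 genes differed between treatments, 5 with a higher and 13 with a lower effect in 4OHT, with a median of -0.02, whereas 37.8% of all tested genes were called, 17.9% higher and 19.9% lower. By adjusted p MRPS6 led the higher values (log2 fold change 0.42, SE 0.11, adjusted p = 0.00298), so its drop after siSF3B1 was smaller in 4OHT than in DMSO. MRPL33 (0.32) and MRPS33 (0.30) followed, and the other 2, named after their values were seen, were MRPL45 (0.26) and MRPS30 (0.19). With siSF3B1-16 alone MRPL33 had 0.16 (adjusted p = 0.285) and MRPS33 0.14 (adjusted p = 0.326), neither called. MRPS23 (log2 fold change -0.47, SE 0.10, adjusted p = 0.000131), MRPL18 (-0.27) and MRPS10 (-0.25) had the smallest adjusted p in the other direction. The largest negative value was that of MRPL39 (log2 fold change -0.66, SE 0.16, adjusted p = 0.000739), named after its value was seen. The log2 fold change of MRPS23 after siSF3B1 was 0.41 in DMSO and -0.06 in 4OHT.

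For siRBM39, 4 genes differed, 1 with a higher and 3 with a lower effect in 4OHT, whereas 14.1% of all tested genes were called, 7.28% higher and 6.87% lower. Without the library that stood apart 15 differed, 2 higher and 13 lower, while 25% of all tested genes were called, 13.1% higher and 11.9% lower. Without the libraries numbered replicate 3, 0 of 73 differed, beside 6.87% of all genes. The 4 were MRPS10 (0.13), MRPS35 (-0.18), MRPL46 (-0.29) and MRPL16 (-0.28), by their log2 values, and without the library that stood apart they had 0.12, -0.18, -0.34 and -0.30, all called. With siRBM39-08 alone MRPS10 had 0.09 (adjusted p = 0.192), MRPL46 -0.18 (adjusted p = 0.111) and MRPL16 -0.16 (adjusted p = 0.198), none of them called.

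Set directly against each other, siSF3B1 and siRBM39 differed in 39 of 73 genes in DMSO, 25 higher after siSF3B1 and 14 lower. In DMSO 67.7% of all tested genes were called, 33.6% higher and 34.1% lower. MRPL49 (0.61), MRPL54 (0.56) and MRPL10 (0.55) were highest after siSF3B1 in relation to siRBM39, MRPL54 not being called with either siSF3B1 siRNA alone (0.63 (adjusted p = 0.0509) and 0.48 (adjusted p = 0.16)). MRPS6 ranged from 15.8 to 21.6 CPM (median 18.4) after siSF3B1 and from 33.6 to 52.7 CPM (median 41.4) after siRBM39 in DMSO (log2 fold change -1.18, SE 0.082, adjusted p = 2.99e-17), the only one of the 73 past 2-fold, beside 4.62% of all genes, followed downwards by MRPL33 (-0.93) and MRPS21 (-0.80). In 4OHT 41 differed, 19 higher and 22 lower, while 71.4% of all tested genes were called, 33.7% higher and 37.7% lower. Without the library that stood apart, 51 differed in 4OHT, 35 higher and 16 lower, while 76.2% of all tested genes were called, 38% higher and 38.1% lower. MRPL10 (0.70), MRPS33 (0.66) and MRPL44 (0.50), which has a ribonuclease III-like fold, were higher in 4OHT, and MRPS5 (-0.87), MRPS6 (-0.86) and MRPS25 (-0.63) lower. Without that library the same 6 were 0.70, 0.69, 0.53, -0.77, -0.84 and -0.52, all called. MRPL10, MRPS5, MRPS6, MRPS25 and MRPS33 had no overlap between the knockdowns in 4OHT, which was so for 28.8% of the 73 genes and 38.9% of all genes.

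**Figure D4:**
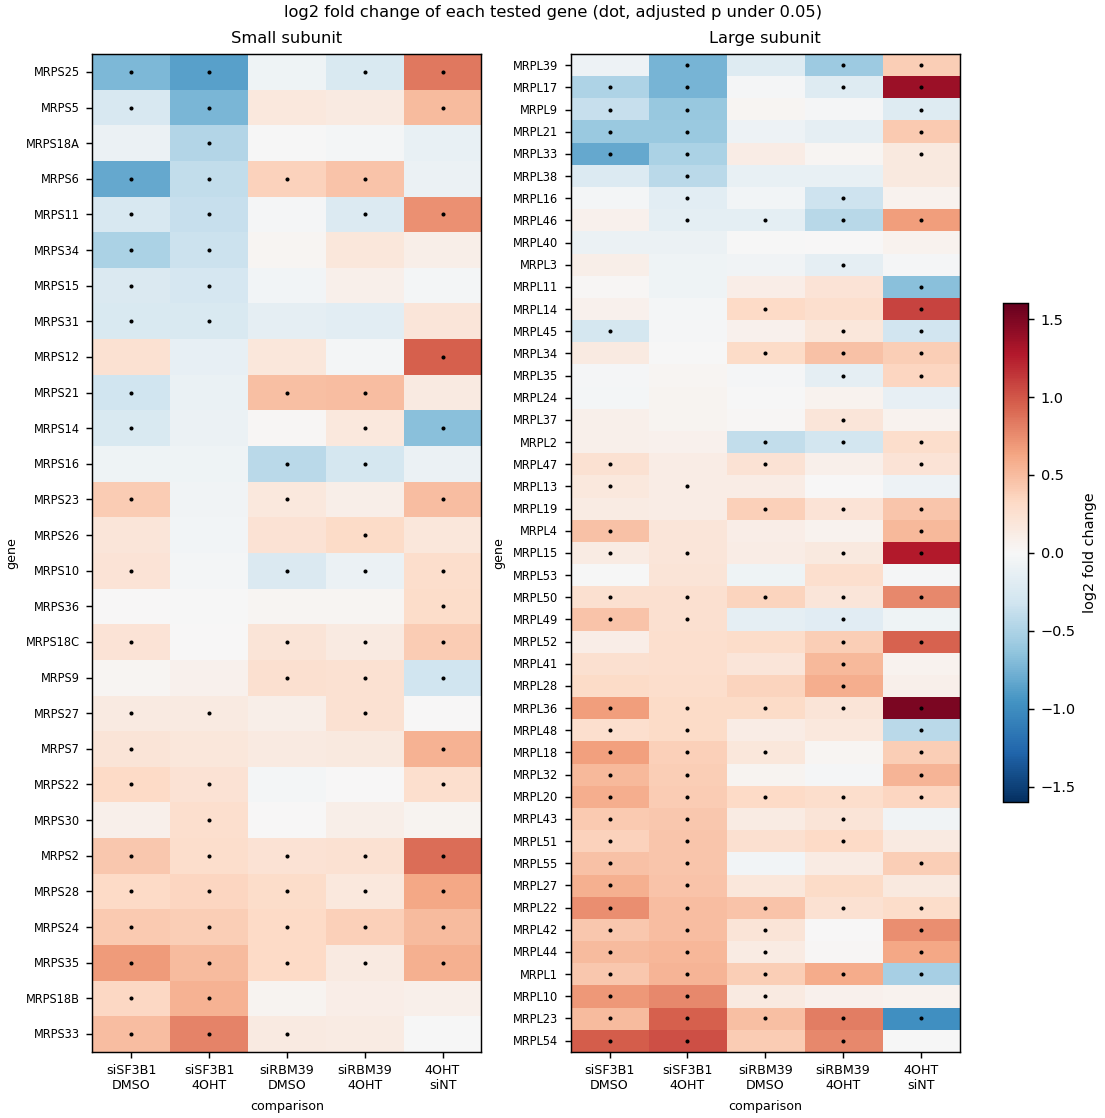
Log2 fold change (colour) of each of the 73 tested genes (rows, by subunit) in the 4 knockdown comparisons and in 4OHT against DMSO with siNT (columns), with a dot where the adjusted p was under 0.05. The last column holds the largest rises, MRPL36 (1.51) and MRPL17 (1.36), and MRPL54 leads the siSF3B1 columns (0.96 and 1.02).

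Splicing of the same transcripts was measured as PSI, the percent of transcripts that include an exon or retain an intron. The event table lists 274 cassette exons and 278 introns in these genes. Of these, 50 exons of 33 genes and 40 introns of 31 genes met the coverage, range and balance filters, out of 7673 exons and 5248 introns tested over all genes. A call needed an adjusted p under 0.05 from limma on logit PSI and a difference of at least 5 points.

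Exon skipping was the main change. After siSF3B1, 17 of 50 exons were called in DMSO, all with more skipping, while 25.7% of all exons were called so. In 4OHT 18 were skipped more and 1, in MRPL48, less, beside 29% of all exons skipped more. The median PSI difference was -2.17 points in DMSO and -2.94 in 4OHT over these exons, and -1.84 and -2.20 over all. Together 19 exons of 16 genes were skipped more in at least one treatment and 16 in both. After siRBM39, 6 exons were skipped more and 1, in MRPL32, less in DMSO, beside 7.01% of all exons skipped more. In 4OHT 8 were skipped more, beside 8.05%. These were 9 exons of 7 genes in either treatment, 5 in both. Without the library that stood apart the count in 4OHT was 8 as well, beside 7.87% of all exons. The exons of MRPL48 and MRPL32 are named after their values were seen.

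Intron retention changed in few. After siSF3B1, 2 of 40 introns were called in DMSO, beside 10.8% of all introns with more retention, and 5 in 4OHT, beside 14.7%. After siRBM39, 2 were called in DMSO, beside 2.02%, and 1 in 4OHT, beside 2.02%. All were retained more. The 5 introns lie in MRPL38, which has 2, MRPL19, MRPL43 and MRPS5, of which 1 in MRPL38 and that of MRPL19 were called in DMSO as well. After siRBM39 those of MRPL38 and MRPL43 were called in DMSO and that of MRPL38 in 4OHT, with or without the library that stood apart. These counts depended on the balance filter, since without it 63 introns were tested and 11 and 21 were called after siSF3B1 in DMSO and 4OHT. The share of all introns called without the filter is not given here, so these counts do not set the genes apart.

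4OHT itself called 0 of the 90 events by limma, against 0.913% of all events, although 4 introns and 3 exons had an unadjusted p under 0.05. The siSF3B1 interaction called 0 of 90 (0.348% of all), with 2 introns and 4 exons under 0.05 unadjusted. With or without the library that stood apart, the siRBM39 interaction called 0 of 90 (with it, 0.0232% of all), with 3 introns and 1 exon. No other tool was run on the events. Between siSF3B1 and siRBM39, 17 events differed in DMSO (17.8% of all) and 17 in 4OHT (20.5% of all), where without that library 14 exons and 3 introns were called.

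The 7 exons printed were each among the 5 largest changes of a knockdown comparison, of exons called without overlap of libraries. They are shown with 50 intron bases before and 10 after, since the 3′ splice site ahead of the exon is where both factors work. Positions are in GRCh37, found by matching the lengths of exons and introns within the gene, 5′ to 3′ on the strand of the gene, with the exon in capitals.
MRPS15, 76-base exon (chr1:36927679-36927814, minus strand): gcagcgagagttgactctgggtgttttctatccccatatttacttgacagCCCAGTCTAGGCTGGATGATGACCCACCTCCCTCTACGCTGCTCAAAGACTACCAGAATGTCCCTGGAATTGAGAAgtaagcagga
MRPS15, 49-base exon (chr1:36926855-36926963, minus strand): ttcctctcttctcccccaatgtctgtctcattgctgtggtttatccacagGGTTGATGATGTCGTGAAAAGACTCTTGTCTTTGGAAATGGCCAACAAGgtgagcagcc
MRPS15, 85-base exon (chr1:36926283-36926427, minus strand): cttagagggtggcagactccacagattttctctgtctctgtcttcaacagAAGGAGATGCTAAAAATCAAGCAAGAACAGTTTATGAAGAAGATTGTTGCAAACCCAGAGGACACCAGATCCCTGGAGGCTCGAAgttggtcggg
MRPS18B, 67-base exon (chr6:30590559-30590685, plus strand): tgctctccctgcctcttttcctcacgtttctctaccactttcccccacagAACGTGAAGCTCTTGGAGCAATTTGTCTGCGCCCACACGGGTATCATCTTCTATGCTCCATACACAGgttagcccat
MRPL17, 69-base exon (chr11:6703968-6704096, minus strand): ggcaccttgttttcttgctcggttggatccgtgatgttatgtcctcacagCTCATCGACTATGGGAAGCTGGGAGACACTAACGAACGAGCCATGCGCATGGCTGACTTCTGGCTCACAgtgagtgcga
MRPL9, 102-base exon (chr1:151733917-151734078, minus strand): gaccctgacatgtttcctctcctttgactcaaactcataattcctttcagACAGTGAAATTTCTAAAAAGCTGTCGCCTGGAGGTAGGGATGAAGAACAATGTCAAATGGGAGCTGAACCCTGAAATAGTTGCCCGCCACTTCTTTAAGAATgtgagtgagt
MRPL52, 65-base exon (chr14:23302577-23302701, plus strand): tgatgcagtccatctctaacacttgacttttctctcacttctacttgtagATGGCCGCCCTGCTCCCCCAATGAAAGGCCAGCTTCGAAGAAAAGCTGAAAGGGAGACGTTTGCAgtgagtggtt
All 7 are coding exons preceded by AG and followed by GT. The 69-base and 102-base exons keep the reading frame when skipped, being multiples of 3, and the other 5 do not.

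MRPS15, a small-subunit rRNA-binding protein, had the exon most affected by siSF3B1 in DMSO, while in 4OHT that of MRPS18B changed more. The 76-base exon had an inclusion from 92.8% to 100% (median 95.8%) in DMSO siNT and from 39.1% to 72.6% (median 57.7%) after siSF3B1, a difference of -40.3 points (adjusted p = 3.01e-13). In 4OHT inclusion ranged from 91.9% to 100% (median 97.6%) and from 47.6% to 73.8% (median 53.8%), a difference of -38.8 points (adjusted p = 1.74e-14). The groups were far apart in both treatments, on from 64 to 173 reads per library. After siRBM39 the same exon differed by -2.61 points in DMSO, which was not called, and by -5.84 points (adjusted p = 0.000887) in 4OHT, or -5.35 points without the library that stood apart. Its neighbours of 49 and 85 bases lie in the same stretch, so the 3 exons are not independent. They differed after siSF3B1 by -20.7 and -17.1 points in DMSO and by -24.2 and -16.4 in 4OHT, all called.

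MRPS18B, a paralogue of MRPS18A and MRPS18C, had inclusion from 89.7% to 100% (median 98.6%) in DMSO siNT and from 64.8% to 84.8% (median 72.6%) after siSF3B1 (-24.5 points (adjusted p = 2.98e-10)). In 4OHT it ranged from 92.4% to 100% (median 95.6%) and from 45.5% to 69.8% (median 55.5%) (-39.7 points (adjusted p = 4.39e-11)). The siSF3B1 libraries lay below all siNT libraries. After siRBM39 the exon fell too, with differences of -9.32 points (adjusted p = 0.000103) in DMSO and -14.5 points (adjusted p = 8.09e-05) in 4OHT, or -15.3 points without the library that stood apart. The MRPL52 exon, of the large subunit, responded to each knockdown: inclusion ranged from 91.6% to 100% (median 95.2%) in DMSO siNT, from 67.9% to 83.5% (median 73.9%) after siSF3B1 (-20.5 points (adjusted p = 1.16e-10)) and from 73.4% to 88.4% (median 79.2%) after siRBM39 (-14.5 points (adjusted p = 1.6e-07)). In 4OHT the differences were -20.7 and -13.8 points, the latter -14.4 without the library that stood apart, and no knockdown library reached siNT in either treatment.

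The MRPL17 exon differed between the knockdowns, by -35.6 points (adjusted p = 3.29e-22) for siSF3B1 against siRBM39 in 4OHT, and by -35.6 points without the library that stood apart. It ranged from 99% to 100% (median 100%) in 4OHT siNT, from 48% to 74.2% (median 64%) after siSF3B1 (-35.9 points (adjusted p = 4.15e-23)) and from 99% to 100% (median 99.6%) after siRBM39, where the difference of -0.25 points was not called, nor that of -0.32 without the library. In DMSO the difference after siSF3B1 was -24.5 points (adjusted p = 2.2e-20). The MRPL9 exon ranged from 83.2% to 94.6% (median 88%) in 4OHT siNT, from 52.5% to 73.4% (median 58.1%) after siSF3B1 (-29.0 points (adjusted p = 2.76e-09)) and from 56.6% to 92.1% (median 73%) after siRBM39 (-15.5 points (adjusted p = 0.000571)), or -14.2 points without that library. In DMSO the values were -21.0 and -10.2 points. Reads per library ran from 49 to 308 for MRPL17 and from 60 to 222 for MRPL9.

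**Figure D5:**
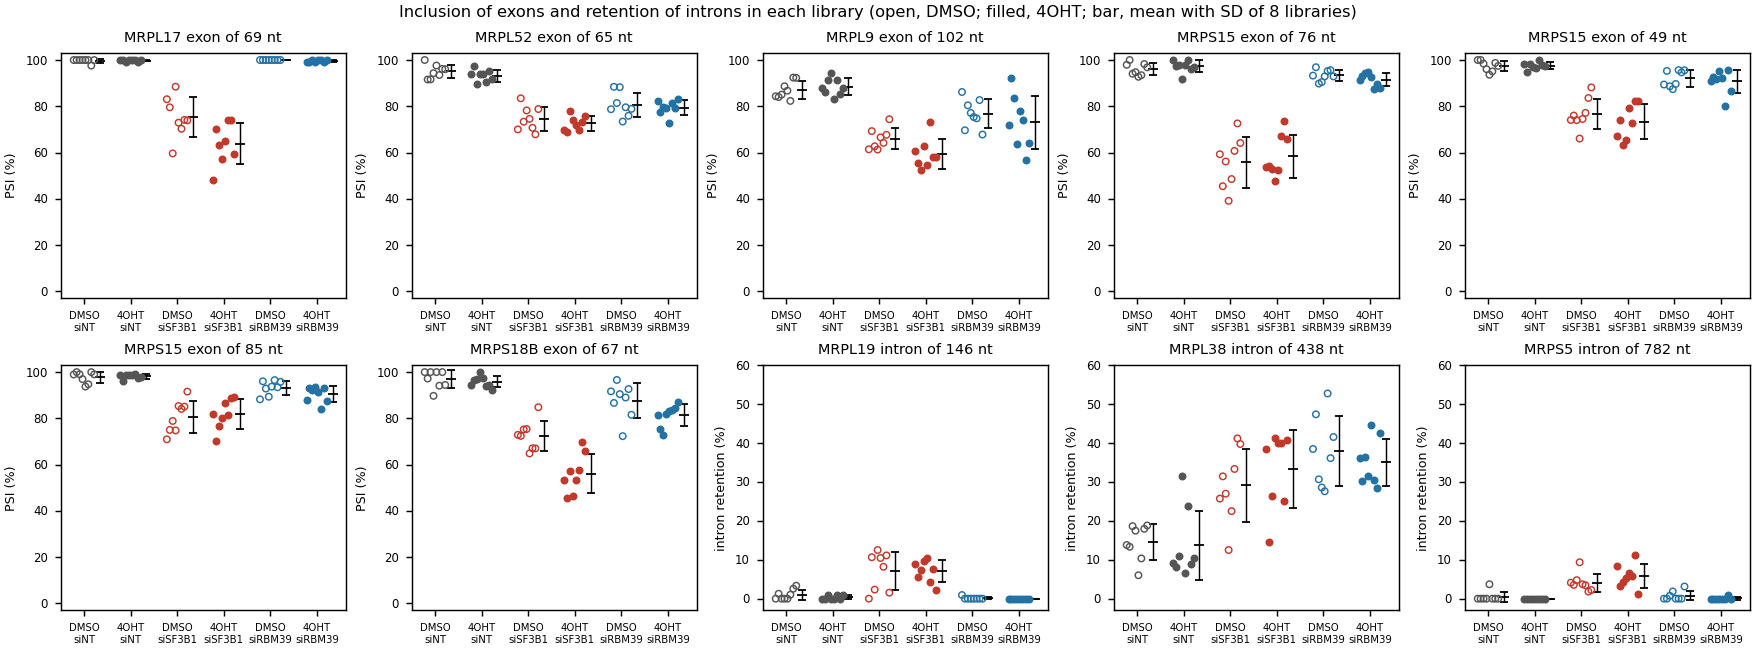
PSI (%) of 7 exons and 3 introns in each library by treatment and siRNA target (open DMSO, filled 4OHT), with means and SDs. The MRPS15, MRPS18B and MRPL17 exons drop furthest after siSF3B1, while the MRPL38 intron is higher after each knockdown.

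The introns called without overlap of libraries in a knockdown comparison were in MRPL38, MRPL19 and MRPS5, genes of both subunits. The MRPL19 intron of 146 bases is printed whole and the ends of the others in part, with exon bases in capitals.
MRPL19 intron (chr2:75882034-75882199, plus strand): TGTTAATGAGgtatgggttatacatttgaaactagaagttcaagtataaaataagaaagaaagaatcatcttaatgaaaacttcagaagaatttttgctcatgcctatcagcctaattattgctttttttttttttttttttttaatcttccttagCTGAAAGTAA
MRPL38 intron start (chr17:73897743-73897802, minus strand): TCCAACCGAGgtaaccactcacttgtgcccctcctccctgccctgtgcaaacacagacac
MRPL38 intron end (chr17:73897345-73897404, minus strand): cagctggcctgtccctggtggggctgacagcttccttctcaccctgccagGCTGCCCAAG
MRPS5 intron start (chr2:95767372-95767431, minus strand): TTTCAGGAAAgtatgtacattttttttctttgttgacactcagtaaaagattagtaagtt
MRPS5 intron end (chr2:95766630-95766689, minus strand): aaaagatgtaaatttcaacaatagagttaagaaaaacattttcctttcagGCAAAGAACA
The MRPL38 intron of 438 bases was retained from 6.02% to 18.8% (median 15.6%) in DMSO siNT, from 12.5% to 41.2% (median 29.2%) after siSF3B1 (14.6 points (adjusted p = 0.00186)) and from 27.6% to 52.7% (median 37.3%) after siRBM39 (23.3 points (adjusted p = 4.77e-05)). In 4OHT the differences were 19.6 and 21.4 points, both called, and the latter was 20.3 without the library that stood apart. Only in DMSO siRBM39 did no library overlap with siNT. The MRPL19 intron was retained from 0% to 1.01% (median 0%) in 4OHT siNT and from 2.17% to 10.5% (median 7.41%) after siSF3B1 (6.65 points (adjusted p = 1.18e-07)). The MRPS5 intron of 782 bases was retained from 0% to 0% (median 0%) in 4OHT siNT and from 1.15% to 11.1% (median 5.55%) after siSF3B1 (5.73 points (adjusted p = 1.24e-09)). In 4OHT these introns of MRPL19 and MRPS5 lay above siNT in all siSF3B1 libraries.

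Some features of the 44 placed exons can be compared as a description. The 17 skipped more after siSF3B1 had a median of 80% pyrimidines in the 20 bases ending 3 bases before the exon (55% to 95%) and a median length of 84 bases. The other 27 had 70% (30% to 100%) and 107 bases. A multiple of 3 was the length of 8 of the 17 and of 6 of the 27. The 8 exons skipped more after siRBM39 had a median of 75% pyrimidines and 80.5 bases, with 1 length a multiple of 3, and the other 36 had 70% and 98 bases, with 13.

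Across all 141 covered exons of these genes the mean PSI was 81.9% in each siNT group, 79.7% and 79.2% after siSF3B1 in DMSO and 4OHT, and 81.3% and 81.2% after siRBM39. Across 133 covered introns, mean retention was 0.664% and 0.609% in siNT, 1.26% in each siSF3B1 group, and 1.06% and 0.952% after siRBM39. These means are a description, with no test.

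Level and splicing can be set side by side for the genes with large events. MRPS18B rose after siSF3B1 in 4OHT (0.56 on the log2 scale) while its exon was skipped more (-39.7 points). MRPL17 fell (-0.74) with -35.9 points, MRPL9 fell (-0.60) with -29.0 points and MRPS5 fell (-0.73) with -21.4 points in its 58-base exon, an exon named after its values were seen, and 5.73 points of intron retention. MRPS15 had a log2 fold change of -0.27 with -38.8 points and MRPL52 one of 0.26 with -20.7 points. The MRPL38 level had a log2 fold change of -0.43 beside 19.6 points of retention. The gene values are read counts over all transcripts, and whether skipped or retained transcripts take part in them was not tested.

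The other genes of mitochondrial translation were listed by function and compared in the same way. All counts are of genes called higher and lower among those tested, with the comparisons named in the order siSF3B1 in DMSO and 4OHT, siRBM39 in DMSO and 4OHT, then 4OHT against DMSO. In that order 36.5% and 36.2%, 39.4% and 37.6%, 23.9% and 22.2%, 32.2% and 24.3%, and 39% and 39.1% of all tested genes were called higher and lower. For 7 further mitoribosomal proteins, whose symbols the rule misses, they were 4 and 2, 2 and 2, 2 and 1, 2 and 4, and 6 and 0, with median log2 fold changes of 0.14, 0.03, 0.08, -0.17 and 0.48. The last holds DAP3, a small-subunit GTP-binding protein (0.79 in 4OHT against DMSO), and MRP63 (0.51). After siSF3B1 in 4OHT CHCHD1 (-0.96) and PTCD3 (-0.51) fell, and PTCD3 (-0.48) fell after siRBM39 in 4OHT as well (-0.45 without the library that stood apart).

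Of 16 translation factors and mRNA handling genes 14 were tested, with 5 and 6, 6 and 5, 4 and 6, 4 and 7, and 8 and 4, with median log2 fold changes of -0.11, 0.07, -0.02, -0.15 and 0.22. In 4OHT siSF3B1, MRRF, the ribosome recycling factor, rose (1.91) while GFM2, which works with it (-1.14), and LRPPRC, which stabilises mitochondrial mRNAs (-0.98), fell. MRRF rose after siRBM39 in 4OHT too (1.06), and there GUF1 (-0.95) and the elongation factor TSFM (-0.74) fell. These were, without the library that stood apart, 1.06, -0.88 and -0.82, all called. TUFM, the elongation factor Tu, rose in 4OHT against DMSO (0.72). Of 25 assembly and rRNA modification factors 19 were tested, with 8 and 4, 11 and 5, 5 and 5, 4 and 8, and 11 and 1, with median log2 fold changes of 0.13, 0.18, -0.04, -0.05 and 0.17. MTG1, a GTPase of large-subunit assembly, fell after siSF3B1 (-1.14) and siRBM39 (-0.88) in 4OHT, as did the rRNA methyltransferase TFB1M (-0.61 and -0.56), which rose in 4OHT against DMSO (0.93). The siRBM39 values without the library that stood apart were -1.13 and -0.50.

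The 7 genes of mitochondrial transcription and RNA turnover were 5 and 2, 4 and 3, 0 and 1, 0 and 4, and 7 and 0, with median log2 fold changes of 0.56, 0.18, -0.00, -0.19 and 0.47. TFAM (0.77) and TFB2M (0.96), which start mitochondrial transcription, rose and PNPT1, an exoribonuclease (-0.73), fell after siSF3B1 in 4OHT. POLRMT, the mitochondrial RNA polymerase, rose with 4OHT (1.13). Of 9 nuclear regulators 7 were tested, with 4 and 0, 3 and 1, 0 and 1, 1 and 1, and 2 and 1, with median log2 fold changes of 0.20, 0.12, -0.06, 0.02 and 0.07. Among them were GABPA, the ETS factor of many respiratory genes (1.40 after siSF3B1 in 4OHT), MYC (1.51) and ESRRA (1.32) in 4OHT against DMSO. The 12 mitochondrially encoded genes were 9 and 0, 11 and 0, 8 and 0, 9 and 0, and 11 and 0, with medians of 0.39, 0.45, 0.38, 0.42 and 0.51. Poly(A) capture was used, and how it takes these short-tailed transcripts was not tested. In 4OHT siRBM39 without the library that stood apart, the counts of higher and lower genes were 0 and 4 for the further mitoribosomal proteins, 4 and 7 for translation factors, 2 and 10 for assembly factors, 0 and 5 for transcription and turnover genes, 2 and 1 for regulators and 11 and 0 for mitochondrially encoded genes, beside 33.1% and 27.1% of all genes. Their median log2 fold changes were -0.18, -0.13, -0.14, -0.16, 0.07 and 0.53.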

How the data were processed

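RNA from 48 libraries of IMR90 ER:RAS cells was sequenced after mRNA capture. The authors aligned reads with vast-tools to a VAST-DB annotation named hg19 and deposited raw counts per gene, the mappability-corrected cRPKM (an RPKM), and PSI as a percent per event with reads and a coverage score. Event coordinates match GRCh38, so loci were placed in GRCh37 by exact lengths. Gene counts were tested in R 4.3.3 with edgeR 4.0.16 (TMM, quasi-likelihood, 6 group means, at least 10000 counts in total, 9991 genes). PSI was squeezed as 0.01 plus 0.98 of its fraction and tested on the logit scale with limma 3.58.1, for events whose coverage score was VLOW or better throughout and whose PSI spanned 5 points or more, after removal of introns with an unbalanced junction (p under 0.05) in any library. Both procedures were tested on simulated data. Counts per library were 31467221 to 52734636. Alternatives were limma-voom, DESeq2 1.42.0, its size factors, other count minimums, the compared groups alone, a replicate block, single siRNAs, omitted libraries and stricter or looser event filters. Other steps used Python 3.11.15 (pandas 2.3.3; figures, matplotlib 3.10.9). The submitters' notes name edgeR and limma.

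Named genes were, per knockdown comparison and for 4OHT, the 6 that rose and 6 that fell most among called genes without overlap of 8 and 8 libraries, and the leading 3 each way by adjusted p for interactions and by size for siSF3B1 against siRBM39, with the 4 highest and 4 lowest genes by cRPKM. Members and lists were chosen with earlier results of these data known. 4 libraries titled siNT2 in 4OHT carry a treatment label naming siNT1, and the title was followed. The methods state 3 replicates and the labels give 4. The 72 pairs of replicates differed by more than sampling noise (lowest chi-square per degree of freedom 1.89).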

Additional observations from a re-analysis of the deposited data

Results flagged for a closer look

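In 47 of 330 groups of 8 libraries examined, over the named genes and events, the highest or lowest library lay far from the rest by the ratio of its gap to the group's range (Dixon's criterion). Chance alone flags about 1 in 20 groups. Of these, 30 were the same library, 4OHT siRBM39-08 replicate 4, with 2.46% mitochondrially encoded counts against 5.29% to 7.67% in the other 7, and the part of that difference in these values was not tested. Its CPM was above the rest of the group for MRPL54 46.7 (others 7.88 to 12), MRPS25 48.9 (others 28.8 to 32), MRPL21 23.6 (others 9.19 to 13.3), MRPS34 70.7 (others 33.4 to 47.2), MRPL17 104 (others 56 to 65.1), MRPL23 37.7 (others 10.04 to 16.2), MRPS18B 63.6 (others 36.3 to 39.6), MRPS5 74.3 (others 44.7 to 47.4) and MRPL9 40.5 (others 32.2 to 35.5). The same was so for MRPS21 45.9 (others 23.7 to 33.2), MRPL20 78.1 (others 33.9 to 43.9), MRPS16 78.2 (others 37.3 to 56.4), MRPS27 98.6 (others 69.2 to 76), MRPL46 15 (others 10.8 to 12.6), MRPL15 111 (others 72.3 to 77.7), MRPL14 74.9 (others 23.8 to 37.4), MRPS12 66.5 (others 16.9 to 28.9) and MRPL52 118 (others 36.5 to 54.1). It held further for MRPL11 35.2 (others 11.5 to 16), MRPL48 12.4 (others 6.85 to 8.09), MRPS9 30.9 (others 18.8 to 20.9), MRPS23 42.3 (others 25.4 to 31.4), MRPS24 141 (others 54.1 to 71.5), MRPL37 125 (others 72.1 to 80.8), MRPS17 8.84 (others 4.04 to 5.01), MRPS18A 31.3 (others 17.9 to 20.9) and MRPS18C 18.8 (others 16.3 to 16.8). It was below the rest for MRPL39 6.91 (others 10.1 to 12.1), MRPL3 54.8 (others 64.9 to 73.4) and MRPL50 18.3 (others 28.7 to 33.8).

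Libraries of other groups stood apart for single genes, by CPM. In DMSO siSF3B1-13 replicate 1 they were MRPL54 20.7 (others 14.3 to 16.4) and MRPS24 61.1 (others 44.3 to 51.4). In DMSO siRBM39-06 replicate 3 they were MRPL22 19.1 (others 14.5 to 16.2), MRPL33 18.8 (others 15.2 to 16.8), MRPS28 12.6 (others 10.1 to 11.1) and MRPL16 33.1 (others 24.4 to 27.9). In 4OHT siRBM39-08 replicate 1 they were MRPL10 36.4 (others 42.6 to 47.3). In 4OHT siSF3B1-13 replicate 2 they were MRPL48 10.7 (others 8.25 to 9.33) and MRPL3 76.7 (others 68.2 to 72). In DMSO siNT1 replicate 1 they were MRPL37 77.9 (others 67.6 to 71.1). In DMSO siRBM39-06 replicate 1 they were MRPL50 16 (others 19.1 to 21.3). In DMSO siSF3B1-13 replicate 3 they were MRPS18C 11.2 (others 13.1 to 14.6). The MRPL17 69-base exon had a PSI of 97.6% in DMSO siNT2 replicate 3, against 100% in the other 7. The MRPL19 intron had a PSI of 0.93% in DMSO siRBM39-06 replicate 1, against 0% in the other 7. The MRPS5 intron had a PSI of 3.70% in DMSO siNT2 replicate 1, against 0% in the other 7. The MRPS5 intron had a PSI of 9.35% in DMSO siSF3B1-13 replicate 4, against 1.82% to 4.76% in the other 7. The MRPS5 intron had a PSI of 1.05% in 4OHT siRBM39-08 replicate 3, against 0% in the other 7.

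The effect of a knockdown differed between 4OHT and DMSO by edgeR's interaction test for 10 named results. For siSF3B1 the log2 difference (4OHT minus DMSO) was 0.42 for MRPS6, 0.32 for MRPL33, 0.30 for MRPS33, -0.25 for MRPS10, -0.47 for MRPS23 and -0.27 for MRPL18. For siRBM39 it was 0.13 for MRPS10, -0.18 for MRPS35, -0.29 for MRPL46 and -0.28 for MRPL16. For siRBM39 the call was lost under 10 alternatives for MRPS10, 6 for MRPL46 and 5 for MRPL16, among them siRBM39-08 alone (0.09 with adjusted p = 0.192, -0.18 with adjusted p = 0.111 and -0.16 with adjusted p = 0.198). For siSF3B1 it was lost with siSF3B1-16 alone for MRPL33 (0.16, adjusted p = 0.285) and MRPS33 (0.14, adjusted p = 0.326).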

How the results depend on the processing

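The direction of the 71 named gene results held under all 1059 alternative values, of which 36 fell short of the threshold, 22 in the siRBM39 interaction, 4 in the siSF3B1 interaction, 4 and 3 for siRBM39 in DMSO (MRPL20) and 4OHT (MRPS28), 3 for siSF3B1 against siRBM39 in DMSO (MRPL54) and 0 elsewhere. Of 243 values for 17 event results 3 fell short, all when 10 points were required. Counts of called genes moved by over 1.5 times as follows. Requiring a 2-fold change left 0 after siSF3B1 in DMSO, 1 in 4OHT, 0 and 0 after siRBM39, 4 for 4OHT, 0 in each interaction, and 1 and 0 for siSF3B1 against siRBM39 in DMSO and 4OHT. For siRBM39 in DMSO (28), siRBM39-06 alone gave 45 and siNT2 alone 18, and leaving out each replicate number gave 16 (without replicate 3) to 38 (without replicate 4). Of all 9991 genes the main fit called 4605 there, and these settings, in that order, 6329, 3214, 3331 and 5042. For siRBM39 in 4OHT (40), only the groups compared gave 22, siNT1 alone 26 and siNT2 alone 18, while the calls over all genes went from 5639 to 4711, 4301 and 4122. For the siSF3B1 interaction (18), only the groups compared gave 34, siNT2 alone 10 and omitted replicates 11 (without replicate 2) to 18 (without replicate 4). The calls over all genes went from 3781 to 5607, 2534, 2617 and 3758. For the siRBM39 interaction (4), omitted replicates gave 0 (without replicate 3) to 13 (without replicate 4), leaving out the library 4OHT siRBM39-08 replicate 4 gave 15, siRBM39-06 alone 18, siRBM39-08 alone 8, siNT1 alone 1 and siNT2 alone 1. Over all genes the calls went from 1413 to 686, 2124, 2499, 3706, 2079, 537 and 628 in that order. The event counts that follow are of these genes alone, without shares of all events. For events, PSI from 1 to 99 with the plain logit left 1 to 3 tested, with introns at 1 after siSF3B1 in DMSO, 1 in 4OHT and 1 after siRBM39 in DMSO, exons at 2, 2, 1 and 2 in the 4 knockdown comparisons, and 1 and 1 event for siSF3B1 against siRBM39. A LOW coverage score gave introns 1 and 2 after siSF3B1 and 0 and 0 after siRBM39, and exons 11 and 11 after siSF3B1, on 25 introns and 30 exons. Without the balance filter introns were 11 and 21 after siSF3B1 and 7 and 6 after siRBM39, 1 event for 4OHT, and 26 and 28 for siSF3B1 against siRBM39. With no minimum difference introns were 16 and 16, then 4 and 2, exons 29 and 32 after siSF3B1, and events 38 and 40 between the knockdowns. At least 10 points gave introns 1 and 1 after siSF3B1 and 1 after siRBM39 in DMSO, exons 10 and 12, then 2 and 4, and events 9 and 9. With siSF3B1-16 alone introns were 4 in DMSO and the siSF3B1 interaction 1, with siSF3B1-13 alone introns were 3 in 4OHT, with siRBM39-08 alone introns were 1 and exons 4 in DMSO, with siRBM39-06 alone exons were 4 in 4OHT, with siNT1 alone introns were 4 and 3 after siSF3B1 and 1 after siRBM39 in DMSO, and with siNT2 alone exons were 4 after siRBM39 in DMSO. Omitting replicate numbers gave introns 2 to 4 and 3 to 5 after siSF3B1 in DMSO and 4OHT and 1 to 2 after siRBM39 in DMSO, exons 4 to 6 there, and 0 to 1 events for 4OHT. The cause of these moves was not tested, beyond the smaller number of events or libraries where an alternative left fewer. The replicate numbers did not pair the libraries: over 264 pairs of libraries with the same number the median correlation of deviations was 0.0121, 77 were over 0.1, and 15 of 48 libraries correlated best with their own number. With a replicate block 48, 45, 28, 39, 45, 18, 4, 39 and 39 genes were called in the 9 comparisons in order, and the event counts did not move. Events rest on few reads, which limits single values.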
